A study of Mus musculus with 10 samples.

Results

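Accessible chromatin of 6 cadherin genes, *Cdh1*, *Cdh2*, *Cdh3*, *Cdh6*, *Cdh11* and *Cdh13*, was followed in mouse epicardium and in epicardium-derived cells (EPDCs) through bulk ATAC-seq peak lists. A peak was assigned to a gene when its summit lay inside the gene or within 25 kb of it on mm10, and the region within 1 kb of the annotated gene start that had the highest mean over the 9 lists was read as the promoter. The strongest region of a gene is likewise the one with the highest mean over the lists, and it need not be the strongest in each group. The summits of 9 lists were joined into 184764 non-overlapping regions reaching 250 bp to either side of a summit, of which 179 belonged to the 6 genes. No region fell into the flanks of 2 of them. By gene, *Cdh13* had 54 regions, *Cdh2* 46, *Cdh11* 22, *Cdh1* and *Cdh3* 20 each and *Cdh6* 17. Introns held 135 of the 179 regions, while 20 lay upstream, 18 downstream, 6 in an untranslated exon and 0 in a coding exon. Of the 179, 5 lay within 1 kb of the start of another protein-coding gene: *Tango6* behind *Cdh1*, *6030452D12Rik* and *Gm10073* on either side of *Cdh3*, and *Hsbp1*, with 2 regions, behind *Cdh13*.

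All embryos were Rosa26tdTomato;Wt1CreERT2/+ on the C57BL/6J background and had received tamoxifen through gavage of the mother at E9.5, so tdTomato marked cells that expressed *Wt1* around that day and their descendants. Epicardium was sorted as CD31-tdTomato+PDPN+ cells, with 3 lists at E11.5 and 3 at E17.5. EPDCs, the mesenchymal descendants, were sorted as CD31-tdTomato+PDPN- cells, with 1 list at E12.5 and 2 at E13.5. Each sample pooled hearts, 6 at E11.5, 4 at E17.5 and, by the labels, 4 to 13 at E13.5, where the methods give a narrower range. The label therefore follows the *Wt1* driver and not the epicardium as such, the PDPN gate alone separates the populations, and no stage was sampled in both. In such bulk lists fewer cells with an open region and less open chromatin in each cell cannot be told apart.

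Classical cadherins are transmembrane proteins whose extracellular repeats bind like cadherins on the next cell in the presence of calcium, and whose tail is held to actin through β-catenin, p120-catenin and α-catenin in the adherens junction. E-cadherin (*Cdh1*) and P-cadherin (*Cdh3*) are typical of epithelia, N-cadherin (*Cdh2*) of mesenchyme, muscle and nerve, cadherin-11 (*Cdh11*) of loose mesenchyme, and K-cadherin (*Cdh6*) of kidney and neural tissue. T-cadherin (*Cdh13*) lacks the tail, sits on the membrane by a lipid anchor and binds adiponectin. Loss of epithelial cadherins and gain of mesenchymal ones is a textbook sign of epithelial-to-mesenchymal transition, the step by which epicardial cells become EPDCs.

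The sequences below were chosen because the comparisons turn on them: the bases just before the start of *Cdh1*, where repressors of the Snail and Zeb families are known to act, and the middle 201 bases of regions shown as examples of a stage or population difference. They were read 5′ to 3′ on the strand of the gene from GRCm38.p6, the assembly of mm10. Capitals mark exact matches, on either strand, to an E-box bound by those repressors (CAGGTG), a TEAD motif (GGAATG), an AP-1 motif (TGANTCA) or a GATA motif (AGATAA). A TBX20 motif (AGGTGTGA) and a MAF motif (TGCTGAC) were searched too and had no match in those shown. The first is chr8:106603101-106603350 on the plus strand, next *Cdh1* at 5.2 kb from the gene start is chr8:106608416-106608616 and *Cdh3* at 11.2 kb and at 19.1 kb are chr8:106522002-106522202 and chr8:106529933-106530133, all on the plus strand. *Cdh6* at −22.8 kb is chr15:13196346-13196546 and *Cdh11* at 92.0 kb is chr8:102693502-102693702, both on the minus strand, and *Cdh13* at 139.1 kb is chr8:118422719-118422919 on the plus strand.
Cdh1 upstream of the gene start: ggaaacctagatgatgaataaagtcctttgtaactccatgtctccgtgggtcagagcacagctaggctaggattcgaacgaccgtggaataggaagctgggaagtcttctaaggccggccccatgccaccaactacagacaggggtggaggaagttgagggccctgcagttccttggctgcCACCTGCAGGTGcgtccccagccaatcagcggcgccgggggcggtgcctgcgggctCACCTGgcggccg
Cdh1 5.2 kb: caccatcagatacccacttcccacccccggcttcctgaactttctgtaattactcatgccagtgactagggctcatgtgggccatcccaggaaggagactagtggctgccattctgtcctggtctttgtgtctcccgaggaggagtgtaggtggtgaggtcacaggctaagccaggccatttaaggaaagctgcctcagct
Cdh3 11.2 kb: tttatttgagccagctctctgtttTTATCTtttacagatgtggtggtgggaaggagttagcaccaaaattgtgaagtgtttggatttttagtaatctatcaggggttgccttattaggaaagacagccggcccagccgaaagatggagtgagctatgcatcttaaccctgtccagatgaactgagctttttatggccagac
Cdh3 19.1 kb: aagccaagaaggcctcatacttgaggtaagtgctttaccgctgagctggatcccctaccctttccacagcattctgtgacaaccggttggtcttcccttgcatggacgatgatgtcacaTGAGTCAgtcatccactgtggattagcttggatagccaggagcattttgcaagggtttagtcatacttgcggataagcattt
Cdh6 -22.8 kb: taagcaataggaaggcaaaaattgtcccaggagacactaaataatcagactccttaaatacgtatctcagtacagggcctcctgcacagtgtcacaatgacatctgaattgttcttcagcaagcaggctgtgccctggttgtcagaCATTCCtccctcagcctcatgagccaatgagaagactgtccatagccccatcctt
Cdh11 92.0 kb: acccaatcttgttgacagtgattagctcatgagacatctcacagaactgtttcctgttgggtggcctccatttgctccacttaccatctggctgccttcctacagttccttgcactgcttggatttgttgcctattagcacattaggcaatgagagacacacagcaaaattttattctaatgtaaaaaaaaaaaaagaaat
Cdh13 139.1 kb: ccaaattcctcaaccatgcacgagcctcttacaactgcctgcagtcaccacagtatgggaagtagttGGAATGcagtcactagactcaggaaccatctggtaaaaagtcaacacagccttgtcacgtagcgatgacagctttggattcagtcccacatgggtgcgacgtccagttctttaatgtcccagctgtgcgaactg

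The 250 bases before *Cdh1* held 3 E-boxes, at −69, −63 and −13 counted from the gene start, of which the first pair adjoin each other in opposite orientation. An E-box was found in the same window of 17.4% of 21911 protein-coding gene starts. Of all regions, the middle 201 bases held a TEAD motif in 19.2%, an AP-1 motif in 15.9% and a GATA motif in 16%, so a match is common and is given here only as a description. Over their whole length, 65 of the 179 cadherin regions held a TEAD motif (36.3%, against 33.1% of all regions), 65 a GATA motif (36.3%, against 29.8%), 46 an AP-1 motif (25.7%, against 22.8%), 42 an E-box (23.5%, against 26.4%), 15 a MAF motif (8.38%, against 11.2%) and 3 a TBX20 motif (1.68%, against 1.97%).

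The lists held 94909 to 142743 summits, of which 87 to 128 lay in the 6 loci. The fragments behind a summit could be solved from the deposited fold enrichment and −log10 p. The weakest called summits rested on a median of 14 to 36 fragments, the highest in E13.5 EPDC sample 2, whose list joins 2 technical replicates and whose commonest background was 10.9 fragments against 2.07 to 4.26 in the other lists. The measure used for a region is the rank percentile of its strongest summit among all summits of that list ordered by −log10 p, from near 0 for the weakest to near 100 for the strongest, and 0 where no summit was called. A percentile of 0 is below the calling threshold and does not show closed chromatin. Promoters of 14 epicardial marker genes had a mean percentile of 59.6 to 67.2 in the E11.5 lists, 74.7 to 79.3 in the E17.5 lists and 48.1 to 57.6 in the EPDC lists, with *Gpm6a* uncalled in every list. By gene the stages were mixed. Without overlap 5 were higher at E17.5 (*Aldh1a2*, *Krt8*, *Krt18*, *Krt19*, *Msln*), against 11.2% of all promoters. The 6 lower (25.2% of all) were *Wt1*, *Upk3b*, *Upk1b*, *Pdpn*, *Bnc1* and *Lrrn4*. *Krt19* had no summit at its gene start in the E11.5 lists, but stood at 90.3 to 93.5 when read at any transcript start. For 11 mesenchymal markers the ranges were 59.6 to 63.2, 62.8 to 72.8 and 70.0 to 78.6. No region was called at the promoters of 4 of 7 endothelial markers (*Pecam1*, *Cdh5*, *Tie1*, *Emcn*), 4 of 6 blood markers (*Ptprc*, *Spi1*, *Hbb-bt*, *Csf1r*) and 2 of 8 cardiomyocyte markers (*Myh6*, *Myl2*). The mean of the 8 cardiomyocyte promoters was 38.8 to 47.3 in epicardium and 33.6 to 38.7 in EPDCs. The EPDC lists also held 252 to 268 summits on sequences outside the main chromosomes, where the epicardial lists held 0, so population, stage and the making of the lists cannot be told apart in the EPDC comparisons.

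Between stages, more cadherin regions were lower than higher at E17.5, as over the whole genome. Of the 147 cadherin regions called in at least 2 lists, 20 were higher at E17.5 than at E11.5 (13.6%) and 34 lower (23.1%) at an adjusted p below 0.05 (limma on the percentiles, Benjamini-Hochberg over all 154147 regions tested), where 9.13% of all regions tested were higher and 25% lower. The median difference was −3.24 percentile points over the cadherin regions and −3.95 over all. This balance depends on scaling: with the same number of top summits from each list the counts were 20 higher and 23 lower of 116 cadherin regions, and over all regions 20430 higher and 24322 lower in place of 14066 and 38539. *Cdh1* had 5 regions higher and 2 lower of 19 tested, and more higher than lower under all 5 other scalings tried. *Cdh2* had 2 higher and 11 lower of 36, and *Cdh6* 1 and 3 of 12, and both had more lower than higher under all of them. *Cdh3* had 5 and 4 of 19, which became 5 and 6 on the log2 score and 5 and 5 when ranked by fold enrichment. *Cdh11* had 3 and 5 of 18, which became 4 and 4 on the log2 score, and *Cdh13* had 4 and 9 of 43, which became 5 and 4 with equal numbers of top summits. Differences between the genes in these counts were not tested. A region called in 1 group only passes the filter of 2 lists through that group. Its zeros in the other groups have no spread and enter the pooled variance of the fit. For such regions, here and below, SE and adjusted p describe the calls and are not a test of openness.

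In EPDCs against both epicardial stages, 34 cadherin regions were higher (23.1%) and 30 lower (20.4%), where 18.9% of all regions tested were higher and 23.0% lower. Against E11.5 epicardium alone the 34 became 20, and without E13.5 EPDC sample 1 the 30 became 19. *Cdh1* had 2 higher and 8 lower, *Cdh3* 5 and 6, *Cdh2* 7 and 5, *Cdh6* 4 and 1, *Cdh11* 4 and 3, and *Cdh13* 12 and 7. Some of these calls rest on 1 stage only, since a region open at E17.5 alone is also lower in EPDCs than the mean of the stages. Against E11.5 and E17.5 epicardium each at an adjusted p below 0.05, 16 cadherin regions were higher in EPDCs (10.9%) and 6 lower (4.08%), where 8.95% of all regions were higher and 8.02% lower. Of those 16, *Cdh13* held 8, *Cdh2* and *Cdh6* 3 each, and *Cdh3* and *Cdh11* 1 each. Of the 6 lower regions, *Cdh1* held 3 of 19 (15.8%), *Cdh11* 1 of 18 (5.56%), *Cdh3* 1 of 19 (5.26%) and *Cdh2* 1 of 36 (2.78%).

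**Figure D1:**
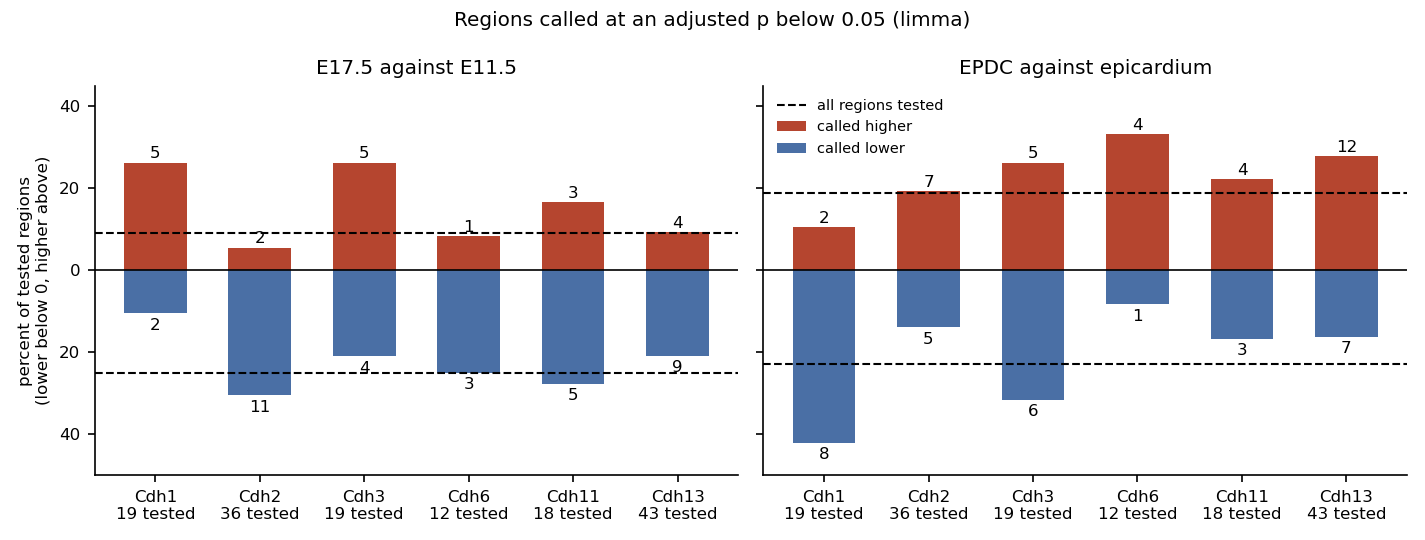
Share of tested regions of each cadherin gene (y axis, percent; higher above 0 and lower below 0) that passed an adjusted p of 0.05 in limma between E17.5 and E11.5 epicardium and between EPDCs and epicardium; dashed lines give the share over all 154147 regions. *Cdh1* has its largest bar among regions lower in EPDCs (42.1% of 19), and *Cdh6* (33.3% of 12) and *Cdh13* (27.9% of 43) have theirs among regions higher in EPDCs.

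The promoters of all 6 genes were called in every epicardial list. Percentiles of different promoters are compared here only in order of rank, since the measure takes no account of base composition. Of the 6, the percentiles of 1 promoter (*Cdh3*) were higher at E17.5 and of 4 (*Cdh2*, *Cdh6*, *Cdh11*, *Cdh13*) lower, without overlap between the lists of the 2 stages, where 11.2% of 15109 protein-coding promoters were higher and 25.2% lower in this way. The limma fit called 2 of the 4, *Cdh6* and *Cdh11*. An exact permutation test of 3 against 3 lists cannot give a p below 0.1, which it gave for each of these 5. Between EPDCs and epicardium the lists of 1 promoter (*Cdh3*) did not overlap, lower in EPDCs, where 6.92% of promoters were higher and 9.97% lower in this way.

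**Figure D2:**
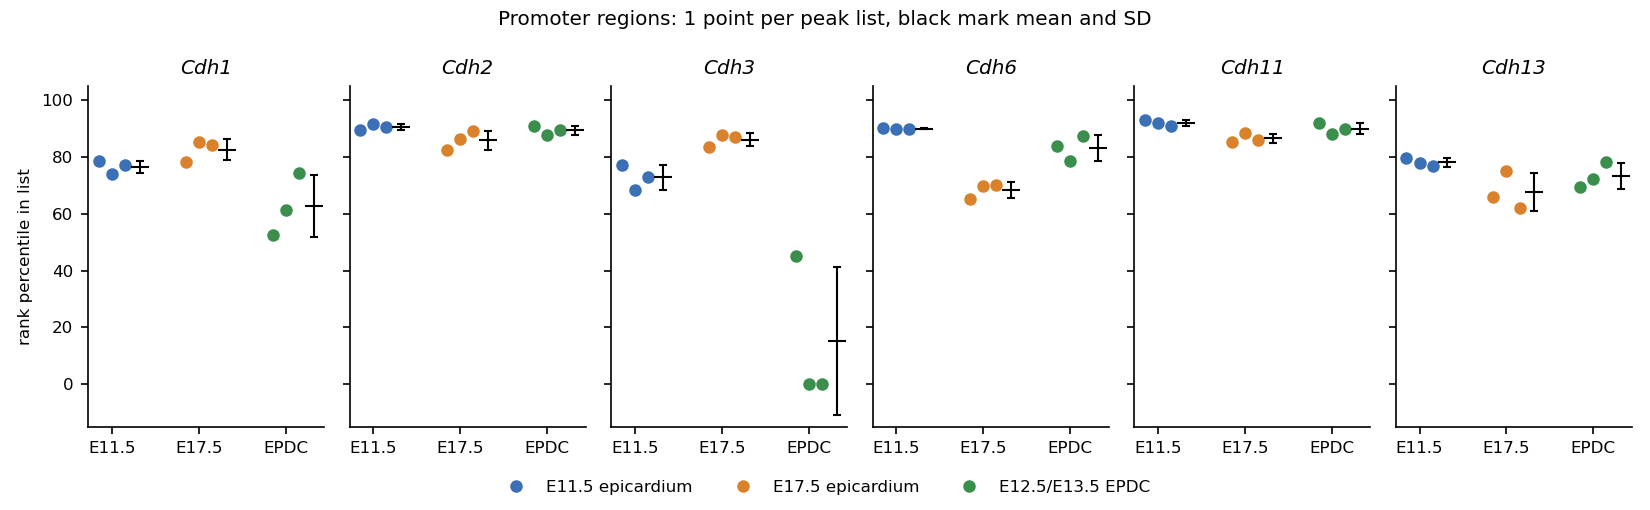
Rank percentile (y axis, percent of the summits of a list) of the promoter region of each cadherin gene, 1 point per peak list, with the mean and SD of 3 lists per group. The *Cdh6* points fall from 89.8 to 90.1 at E11.5 to between 65.0 and 70.2 at E17.5, and those of *Cdh3* in EPDCs are 45.2 in 1 list and 0 in the other two, where the summit was called further into the gene.

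*Cdh1*, the main cadherin of epithelia, had an open promoter in all lists and some distal regions that were weaker or uncalled in EPDCs. The paper reports its transcript absent from mouse epicardium, the epicardial lineage and the mouse heart. It proposes silencing by a histone mark near the promoter, so an open region here does not stand for expression. The promoter region, centred 0.072 kb after the gene start, stood at 78.4, 74.0 and 77.0 at E11.5, at 78.4, 85.3 and 84.2 at E17.5, and at 52.6, 61.2 and 74.5 in EPDCs. The EPDC values were the lowest of the groups but reached the lowest E11.5 value. Their mean lay 16.8 points below that of epicardium (62.7 ± 11.1, SD, n = 3, against 79.6 ± 4.32, n = 6; exact permutation test, two-sided, p = 0.0238; limma adjusted p = 0.0140), and leaving out E12.5 EPDC sample 1 reduced the difference to −11.7 with an exact p of 0.0714. Against E11.5 alone the difference was −13.7 and the limma call was lost (adjusted p = 0.0638). Stages overlapped at this promoter, with a difference of 6.12 points (exact p = 0.2).

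Farther out, 14.5 kb before *Cdh1*, a region in an annotated neighbouring transcript stood at 60.8, 72.4 and 64.7 in the E11.5 lists, overlapped them in the E17.5 lists with 57.1, 61.1 and 59.2, and was uncalled in 2 EPDC lists and at 34.9 in the other. All EPDC values lay below all epicardial ones (−50.9 ± 8.26, SE; adjusted p = 0.00145), which held against E11.5 and E17.5 each. An intronic region at 52.9 kb showed the same order with wider spread, from 27.8 to 71.0 in epicardium against 0, 0 and 21.7 in EPDCs (−38.7 ± 10.6; adjusted p = 0.0189). This call was lost without E12.5 EPDC sample 1 or without E13.5 EPDC sample 1 (adjusted p = 0.0656 and 0.0761). In contrast, the strongest region of the gene, in the intron at 16.4 kb with an AP-1 match, was high throughout, from 91.3 to 96.4 in epicardium and from 88.9 to 93.2 in EPDCs, and passed neither comparison.

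By stage, *Cdh1* regions that passed lay in introns and behind the gene. The region at 5.2 kb, whose sequence is printed above without a motif match, was called at E17.5 only, at 41.5, 57.4 and 48.4 (49.1 ± 4.72, SE; adjusted p = 9.74e-05), on 27 to 53 fragments. Its SE and adjusted p rest in part on the zeros of the other lists, which have no spread. At 29.4 kb values rose from 23.7, 19.5 and 0 at E11.5 to 40.3, 60.7 and 47.3 at E17.5, and no EPDC list called it (stage difference 35.0 ± 7.56; adjusted p = 0.00663). A region at 32.1 kb went the other way, at 42.9, 34.5 and 21.1 at E11.5 and uncalled elsewhere (−32.8 ± 5.28; adjusted p = 0.00144), a call that was lost with equal numbers of top summits (adjusted p = 0.297). Behind the gene, at 73.2 kb, a summit was called at 25.04, 42.9 and 32.1 at E17.5 and in no E11.5 list (adjusted p = 0.00166). The remaining regions higher at E17.5, at 23.0 kb and 78.2 kb, stayed at 33.5 or below. The other region lower at E17.5, at 80.1 kb, is the start of *Tango6* and not an element of *Cdh1* by position.

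*Cdh3*, whose product P-cadherin is found in basal epithelial layers, had a gene start at which the result depended on summit position. The region at the start stood at 77.2, 68.4 and 73.1 at E11.5 and at 83.4, 87.8 and 87.1 at E17.5, and all E17.5 values were the higher (difference 13.2; exact p = 0.1; limma adjusted p = 0.403). In EPDCs it held a summit in 1 list, at 45.2, and none in the other two (−64.4 ± 9.57, SE; adjusted p = 0.00092; exact p = 0.0119). The called interval nevertheless covered the start in every EPDC list. Read by any overlap of the interval, the EPDC values were 73.6, 56.9 and 69.8, which lay 12.9 points below epicardium (exact p = 0.0833). The EPDC summits sat in a second region at 0.7 kb, at those same percentiles, where the E11.5 lists stood at 73.1, 69.7 and 52.8 and the E17.5 lists at 56.7, 0 and 54.4. The EPDC mean there was 15.7 ± 12.4 points higher, which did not pass the test. At *Cdh3*, then, the strongest EPDC summit lay elsewhere within 1 kb of the start, and the promoter itself was covered by called intervals in all 9 lists.

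Inside *Cdh3*, intronic regions of opposite course lay a few kilobases apart. At 19.1 kb, in the window printed above with an AP-1 match, the 3 E11.5 lists had no summit and the E17.5 lists stood at 70.0, 83.6 and 74.1 (75.9 ± 8.45, SE; adjusted p = 0.000201), while EPDCs stood at 0, 0 and 28.9. At 52.9 kb, behind the gene, E17.5 lists alone called a region, at 63.5, 72.8 and 64.3 (66.8 ± 4.52; adjusted p = 2.68e-05). At 11.2 kb, in the window with a GATA match, the order was reversed, with E11.5 lists at 46.1, 47.7 and 39.4, then 9.43, 6.15 and 2.198 at E17.5 and 66.5, 77.7 and 77.7 in EPDCs. There the EPDC values were above all epicardial ones (48.8 ± 5.11; adjusted p = 0.000158) and the E17.5 values below all E11.5 ones (−38.4 ± 5.90; adjusted p = 0.00111). Ranked by fold enrichment or read by the interval, the stage call of that region was lost (adjusted p = 0.151 and 0.185) and its direction kept. By the interval E17.5 sample 3 stood at 52.1, above every E11.5 list, so the stages overlapped. A weaker region at 16.5 kb had summits from 20.8 to 34.2 at E11.5 and none at E17.5 (−27.5 ± 7.08; adjusted p = 0.0156), and its call was lost without E11.5 sample 2, at a stricter −log10 q of 5 and with equal numbers of top summits (adjusted p = 0.0547, 0.0742 and 1).

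The strongest region of *Cdh3*, at 8.1 kb with an AP-1 match, was highest at E11.5 (96.0, 95.5 and 96.2), lower at E17.5 (81.5, 90.4 and 86.3) and in EPDCs (83.4, 76.1 and 81.0), and passed both comparisons (−9.81 ± 2.43 by stage, adjusted p = 0.0130; −10.8 ± 2.11 in EPDCs, adjusted p = 0.00372). EPDC and E17.5 values overlapped there. Between *Cdh3* and *Cdh1*, at 66.4 kb from the start of *Cdh3*, a region with a GATA match rose from 71.1, 69.7 and 64.2 at E11.5 to 80.1, 79.1 and 73.0 at E17.5 (9.06 ± 2.64; adjusted p = 0.0269) and stood at 82.0, 82.2 and 84.5 in EPDCs (10.1 ± 2.28 over epicardium; adjusted p = 0.00782). Against E17.5 alone the EPDC difference of 5.54 did not pass (adjusted p = 0.131).

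*Cdh2*, the cadherin of mesenchyme and of heart muscle, had a promoter near the top of the lists in every group and most of its changes in its long introns. The promoter stood at 89.5, 91.7 and 90.7 at E11.5, at 82.5, 86.2 and 89.1 at E17.5, and at 90.8, 87.7 and 89.6 in EPDCs. The stages did not overlap (−4.70 ± 1.67, SE; limma adjusted p = 0.0597; exact p = 0.1), and EPDC values lay among those of epicardium. A second region within 1 kb of the start, at 0.599 kb and named after its values were seen, stood at 87.9, 89.1 and 90.2 at E11.5, at 82.7, 84.2 and 83.0 at E17.5 and from 84.9 to 86.3 in EPDCs, and there the stage difference passed the test (−5.76 ± 1.05, SE; adjusted p = 0.00281). The strongest region of the gene, at 68.3 kb, overlaps the element that the study linked to *Cdh2*. It stood at 93.4, 94.3 and 95.9 at E11.5, at 89.9, 92.6 and 91.2 at E17.5 and at 93.9, 94.98 and 96.1 in EPDCs. The E17.5 values were the lowest (−3.33 ± 1.009; adjusted p = 0.0320), and EPDC values were not set apart from both stages together (2.08 ± 0.874; adjusted p = 0.0875), with E11.5 and EPDC values overlapping.

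A pair of neighbouring *Cdh2* regions, 29.6 kb and 28.4 kb into the gene, went opposite ways in EPDCs, while neither had a summit at E17.5. At 29.6 kb the EPDC lists stood at 89.5, 83.5 and 84.6, on 141 to 303 fragments, above 6.02, 34.6 and 56.6 at E11.5 and no summit at E17.5 (69.6 ± 9.71, SE; adjusted p = 0.000667). Its stage difference was −32.4 ± 11.2 (limma adjusted p = 0.0541). In E11.5 sample 1 the interval over this region stood at 65.6, the value of its summit at 28.4 kb, so 6.02 understates that list. At 28.4 kb only the E11.5 lists had a summit, at 65.6, 69.4 and 55.3 (−63.4 ± 4.88 by stage, adjusted p = 3.87e-05; −31.7 ± 4.23 in EPDCs, adjusted p = 0.000532). This region was 1 of the 3 with a TBX20 match. Among other introns, the region at 64.1 kb fell from 73.4, 68.6 and 68.9 at E11.5 to 0, 36.6 and 0 at E17.5 (−58.1 ± 10.03; adjusted p = 0.00209), with EPDCs between, from 40.9 to 54.2. The region at 50.1 kb was lower in EPDCs, at 37.4, 0 and 0, than in any epicardial list, where it ranged from 60.1 to 82.1 (−59.5 ± 9.46; adjusted p = 0.00130). At 178.6 kb a summit was called at E17.5 only, at 29.2, 52.1 and 33.5 (38.3 ± 5.78; adjusted p = 0.00102).

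Of the named *Cdh2* regions, 2 changed direction with where in an interval the summit was placed. At 136.0 kb only EPDC lists had a summit, at 66.5, 70.9 and 77.4 (71.6 ± 4.07, SE; adjusted p = 7.34e-06), yet intervals called in epicardium covered it, and by overlap the difference was −3.95 (adjusted p = 0.457). At 127.8 kb summits were higher at E17.5, at 30.0, 42.0 and 21.1 against 0, 6.96 and 0 at E11.5 (28.7 ± 5.38; adjusted p = 0.00322), and by overlap of intervals lower by −17.8 (adjusted p = 0.127).

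*Cdh6*, a cadherin known from kidney and neural crest, had the largest stage difference among the 6 promoters. It stood at 90.1, 89.9 and 89.8 at E11.5, at 65.0, 69.7 and 70.2 at E17.5, and at 83.8, 78.5 and 87.5 in EPDCs. The 3 groups did not overlap, in the order E17.5, EPDC, E11.5. The stage difference was −21.6 ± 2.42 (SE; adjusted p = 0.000208), and EPDCs lay 14.97 points above E17.5 (adjusted p = 0.00124) and 6.63 below E11.5, which did not pass (adjusted p = 0.0651). An intronic region at 106.0 kb was also lowest at E17.5, but its EPDC values lay above every E11.5 value, with 82.7, 87.2 and 89.5 at E11.5, 60.6, 58.6 and 54.2 at E17.5 and 89.9, 91.4 and 91.4 in EPDCs (−28.7 ± 2.33 by stage, adjusted p = 4.68e-05; 18.8 ± 2.02 in EPDCs, adjusted p = 0.000182). Against E11.5 alone the EPDC difference was 4.42 and did not pass (adjusted p = 0.170).

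The region in front of *Cdh6*, at −22.8 kb with a TEAD match in the window printed above, was largely a region of EPDCs. The EPDC lists stood at 82.7, 86.7 and 87.4, on 93 to 298 fragments, the E11.5 lists at 0, 26.2 and 16.0, on 21 fragments or fewer where called, and no E17.5 list called it. The difference from epicardium was 78.6 ± 6.19 points (SE; adjusted p = 3.88e-05), and it held against each stage. Weaker *Cdh6* regions were at 115.8 kb, called at E11.5 only from 16.2 to 28.3, and at 126.6 kb, called from 20.1 to 39.5 at E17.5 and in no E11.5 list. Both stage calls (adjusted p = 0.00138 and 0.00820) were lost at a −log10 q of 5 (adjusted p = 0.0684 and 0.0528), the second also with equal numbers of top summits (adjusted p = 0.117). The region at 126.6 kb held 4 AP-1 matches in a run of bases that repeats itself.

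Close to the *Cdh6* start, a region at 1.2 kb was higher in EPDCs, at 55.3, 66.1 and 69.6, than in any epicardial list, from 20.8 to 44.2 (32.5 ± 6.11; adjusted p = 0.00309). This interval also takes in the promoter summit, and by overlap of intervals the difference was 17.2 (adjusted p = 0.309). Its neighbour at 1.8 kb had summits in the 6 epicardial lists, from 2.12 to 32.03, and none in EPDCs, without passing the test (−14.4 ± 6.09; adjusted p = 0.0895), and by overlap the sign turned to 26.9. Over the left-out lists the difference ranged from −18.8 to −11.3, and under 2 alternative settings it passed.

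*Cdh11*, a marker of mesenchyme that epicardium also has open, had its strongest region at its start, at 93.0, 91.9 and 90.9 at E11.5, at 85.2, 88.3 and 86.0 at E17.5 and at 92.1, 88.1 and 89.8 in EPDCs. E17.5 values were below those of E11.5 (−5.44 ± 1.29, SE; adjusted p = 0.0106), and EPDCs differed from epicardium by 0.753, within the spread of the lists (exact permutation test, p = 0.75). At 92.0 kb in an intron, in the window printed above without a match, EPDC lists stood at 68.9, 82.2 and 82.8, above the E11.5 lists at 51.3, 44.6 and 30.2 and the E17.5 lists at 23.1, 26.5 and 20.9 (45.2 ± 6.07; adjusted p = 0.000551). The opposite was seen at 44.6 kb, with no EPDC summit against 7.95, 38.3 and 29.7 in the E11.5 lists and 51.4, 61.1 and 48.2 in those of E17.5 (−39.4 ± 6.94 in EPDCs, adjusted p = 0.00219; 28.2 ± 8.01 by stage, adjusted p = 0.0242). The stage call at 44.6 kb was lost without E17.5 sample 2 (adjusted p = 0.0709) and when ranked by fold enrichment, where the difference was 17.1 (adjusted p = 0.151).

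The regions of *Cdh11* with the largest stage differences were lower at E17.5. At 64.4 kb the E11.5 lists stood at 57.4, 54.5 and 56.7, no E17.5 list had a summit, and EPDCs stood at 0, 0 and 20.5 (−56.2 ± 6.13 by stage, SE; adjusted p = 0.000182). At −18.9 kb, upstream, values of 59.7, 65.4 and 71.1 at E11.5 and 66.7, 50.3 and 71.0 in EPDCs stood above 7.04, 15.03 and 0 at E17.5 (−58.0 ± 7.36; adjusted p = 0.000399). A gain at 69.5 kb, from no summit to 29.2, 35.5 and 22.7, passed narrowly (29.1 ± 9.72; adjusted p = 0.0472), and the call was lost without any 1 of the 6 epicardial lists (adjusted p = 0.0718 to 0.127) or without E13.5 EPDC sample 1 (adjusted p = 0.0638).

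*Cdh13*, the anchored cadherin without a catenin-binding tail, spans 1041 kb, the longest of the 6, and held 8 of the 16 regions that were higher in EPDCs than at both stages. Its promoter stood at 79.8, 77.9 and 76.7 at E11.5, at 65.8, 75.1 and 61.9 at E17.5 and at 69.5, 72.2 and 78.2 in EPDCs. The stages did not overlap (−10.5 ± 3.72, SE; limma adjusted p = 0.0582; exact p = 0.1), and EPDC values overlapped those of both. A second region at 0.831 kb was also lower at E17.5 without overlap, from 32.7 to 43.2 against 45.1 to 59.1, and did not pass the test (−14.4; adjusted p = 0.145). At 139.1 kb, in the window printed above with a TEAD match, EPDC lists stood at 72.9, 83.8 and 89.2 on 65 to 334 fragments, no E11.5 list had a summit, and E17.5 lists stood at 22.1, 15.03 and 19.3 on 15 to 19 fragments. EPDCs lay 72.6 ± 5.17 points above epicardium (adjusted p = 2.36e-05). At 370.9 kb EPDCs stood at 57.0, 62.6 and 62.8, against a single epicardial summit of 20.8 in E11.5 sample 2 (57.3 ± 5.52; adjusted p = 0.000106).

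By stage, *Cdh13* regions both appeared and disappeared. At 344.3 kb E17.5 lists alone had a summit, at 40.8, 71.6 and 65.6 (59.3 ± 7.48, SE; adjusted p = 0.000387), and at 110.3 kb at 32.4, 31.6 and 37.6 (33.9 ± 3.32; adjusted p = 0.000107). At 335.0 kb the E11.5 values of 54.8, 72.4 and 50.1 were followed by none at E17.5, with EPDCs from 16.4 to 39.8 (−59.1 ± 7.97; adjusted p = 0.000554). At −12.8 kb E11.5 and EPDC lists overlapped, at 56.5, 66.1 and 55.8 and at 52.6, 58.3 and 55.7, and E17.5 lists stood at 0, 0 and 13.9 (−54.8 ± 6.34; adjusted p = 0.000245). Of regions lower in EPDCs, the largest difference without overlap was at 417.8 kb, from 83.3 to 92.0 in epicardium and at 74.3, 78.5 and 82.3 in EPDCs (−8.37 ± 1.81; adjusted p = 0.00623), and against E11.5 alone it did not pass (adjusted p = 0.0727). The strongest region of the locus, at 1061 kb and 96.0 or more in every list, lies 26 bp from the start of *Hsbp1*.

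**Figure D3:**
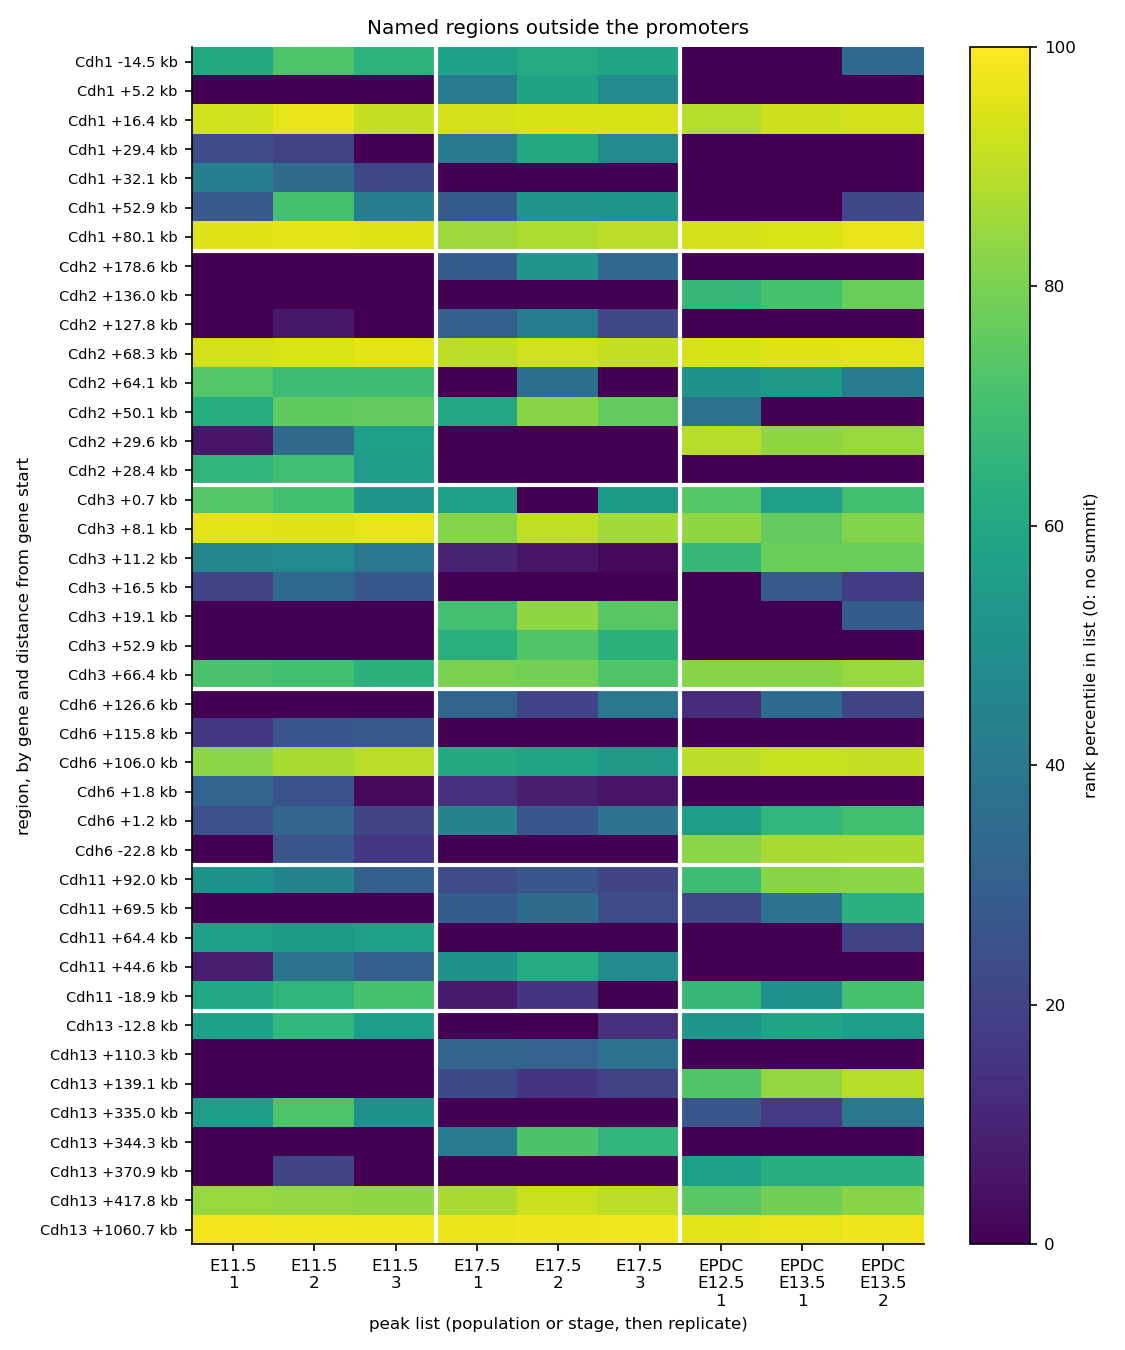
Rank percentile (colour, 0 where a list had no summit) in each of the 9 peak lists (columns) of the named cadherin regions outside the promoters (rows, by gene and distance from the gene start in kb). *Cdh6* at −22.8 kb and *Cdh13* at 139.1 kb stand at 72.9 to 89.2 in the EPDC columns, and *Cdh3* at 19.1 kb at 70.0 to 83.6 in the E17.5 columns.

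**Figure D4:**
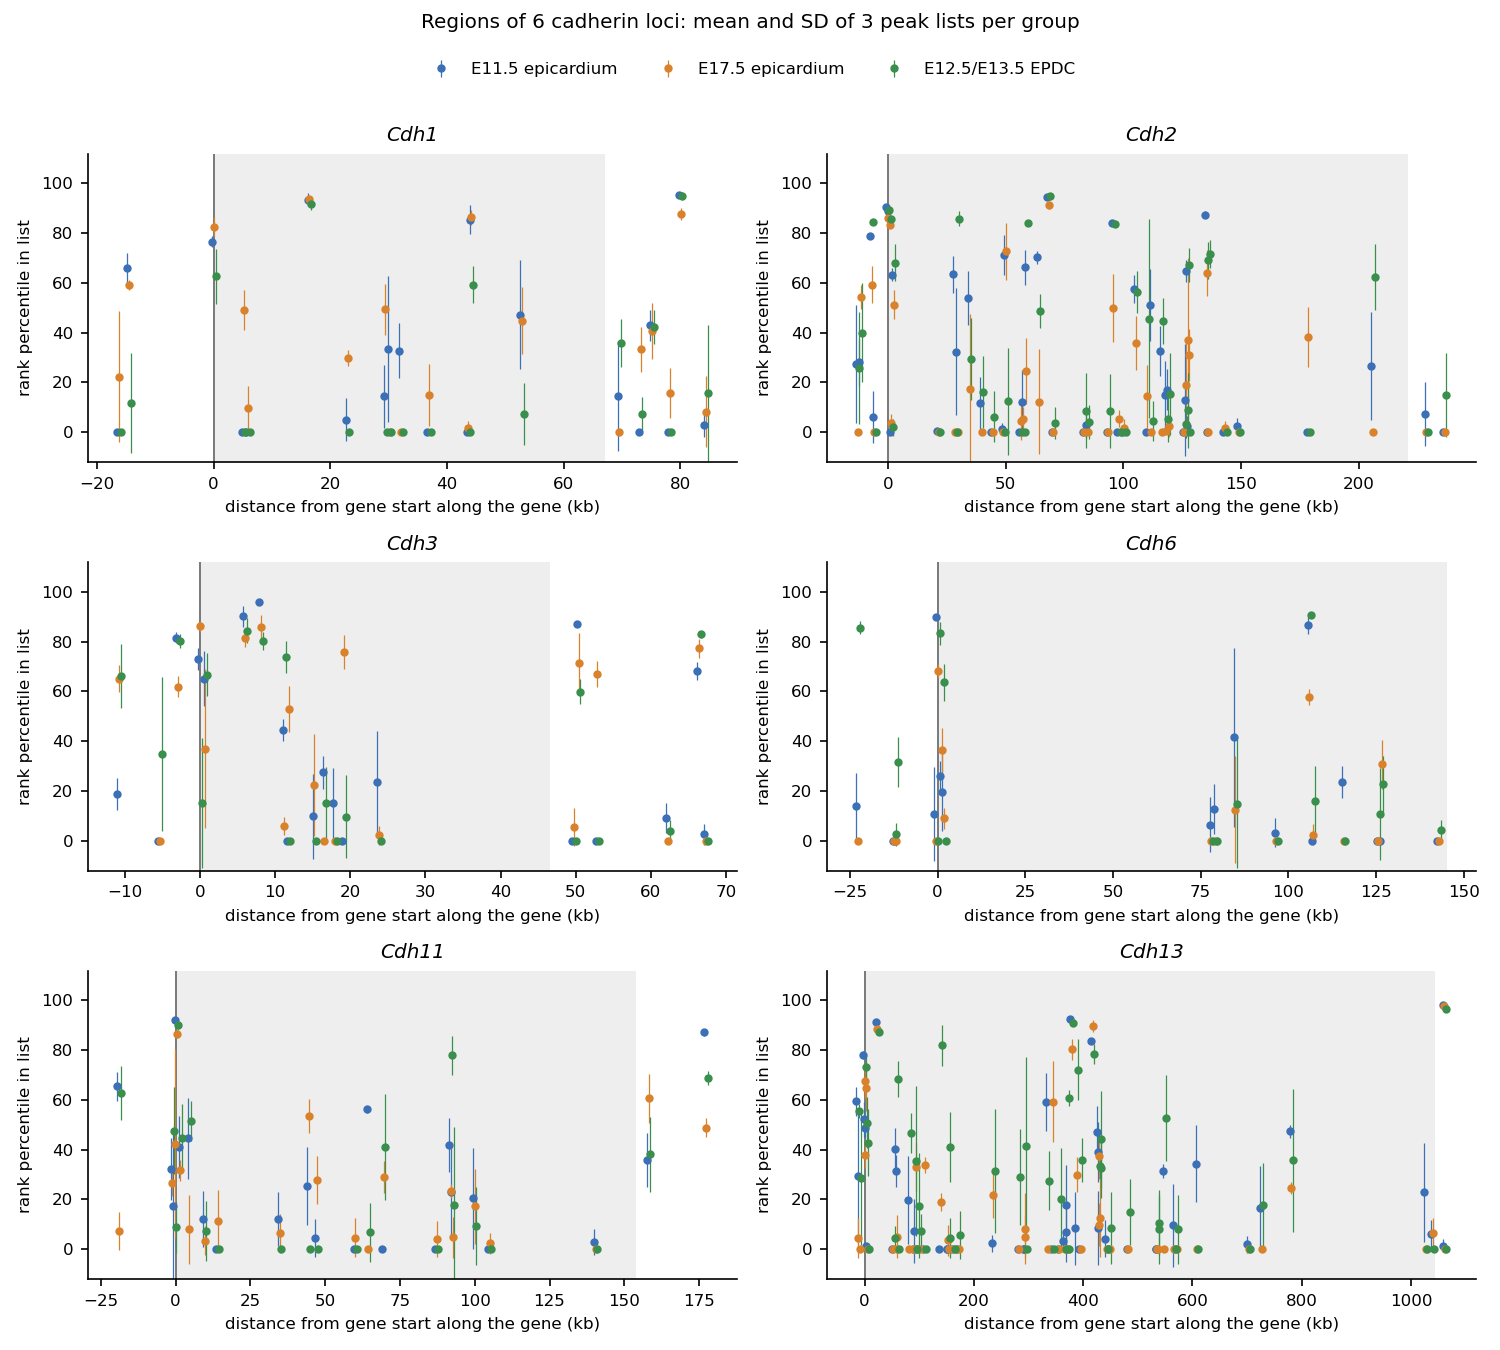
Mean rank percentile and SD of 3 lists per group (y axis, percent) for every region of the 6 loci, by distance from the gene start along the gene (x axis, kb). *Cdh13* shows its 54 regions over 1041 kb of gene, and *Cdh6* its 17, with the start highest at E11.5 (mean 89.9) and E17.5 (68.3) and the region at 106.0 kb highest in EPDCs (90.9).

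Counted by summits, the *Cdh13* locus was fuller in each EPDC list than in any epicardial list. It held 1.84, 2.24 and 2.25 summits per 10000 of the list at E11.5, 2.11, 1.88 and 1.86 at E17.5, and 2.94, 3.35 and 3.57 in EPDCs, which were all above epicardium (3.28 ± 0.317 against 2.03 ± 0.193, SD; two-sided exact permutation test over 84 assignments, p = 0.0119, the smallest it can give). The locus of *Cdh1* was fullest at E17.5, at 1.58, 1.17 and 1.86 against 0.838, 0.911 and 0.725 at E11.5 (exact p = 0.1), and stood at 0.588, 0.651 and 0.759 in EPDCs (exact p = 0.0952 against epicardium). *Cdh11* was likewise higher at E17.5 than at E11.5 in every list (1.52 ± 0.240 against 1.18 ± 0.0561; exact p = 0.1). For *Cdh2*, *Cdh3* and *Cdh6* the groups overlapped by stage and the exact p was 0.131 or more in both comparisons. Of these 12 tests, 1 gave an unadjusted p below 0.05, that of *Cdh13* in EPDCs, and it did not pass after Benjamini-Hochberg adjustment over the 12.

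**Figure D5:**
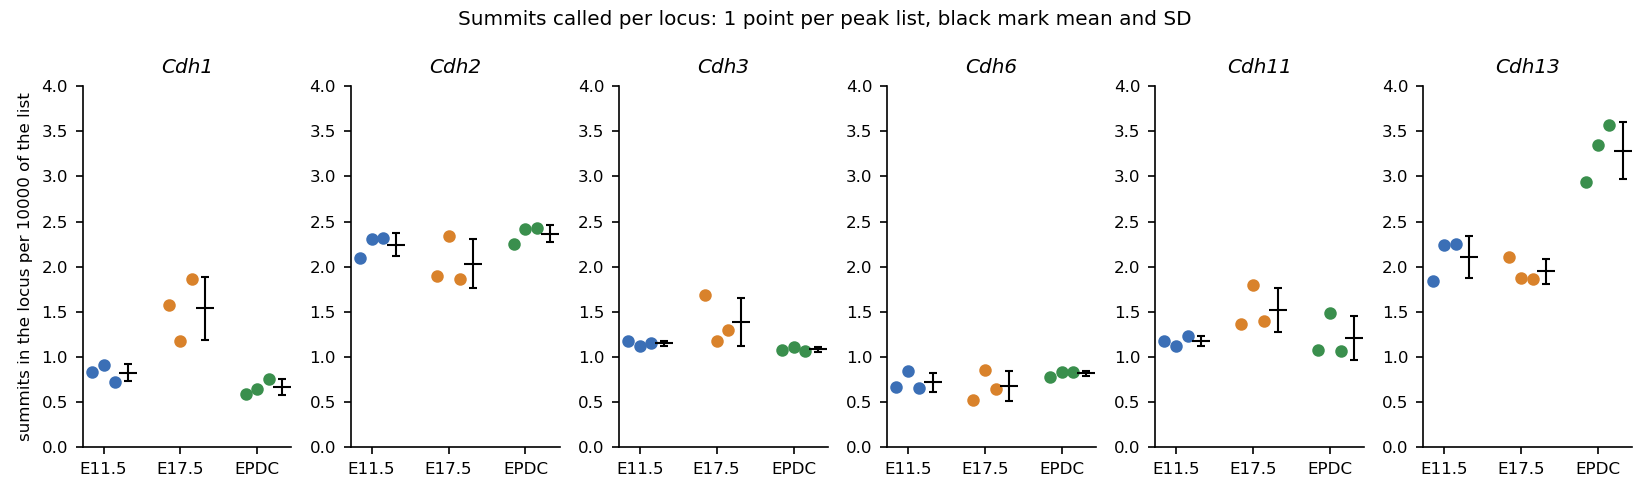
Summits in each gene and its 25 kb flanks per 10000 summits of the list (y axis), 1 point per peak list, with the mean and SD of each group. The 3 EPDC points of *Cdh13*, from 2.94 to 3.57, lie above its 6 epicardial points, from 1.84 to 2.25.

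The partners of cadherins at the adherens junction and the repressors of *Cdh1* were read at their promoters from a list of 24 genes. A region was called at 22 of them, and at E17.5 2 were higher and 9 lower than at E11.5 in every list, against 11.2% and 25.2% of all promoters. The 2 higher were *Nectin3*, an adhesion molecule that recruits afadin, and *Ctnna1*, which encodes αE-catenin. *Nectin3* stood at 14.5, 25.1 and 26.2 at E11.5, at 67.0, 68.4 and 66.3 at E17.5, and had no summit in EPDCs. Stronger intervals whose summit lay elsewhere covered this region at 98.1 in E11.5 sample 1 and 98.5 in E13.5 EPDC sample 2. Read at any of its transcript starts, an alternative chosen after the data were seen, *Nectin3* stood at 98.1, 97.7 and 98.7 in the E11.5 lists, 96.6, 97.0 and 96.2 in those of E17.5 and 98.5, 98.1 and 98.5 in EPDCs, so its stage direction turned and its EPDC call was lost. *Ctnna1* had a summit there in 1 E11.5 list and in no EPDC list, while intervals covered it in all 9, from 83.3 to 91.3 at E11.5, from 91.3 to 93.7 at E17.5 and from 85.0 to 93.0 in EPDCs. The 9 lower were the p120-catenin gene *Ctnnd1* and its relative *Ctnnd2*, the α-catenins *Ctnna2* and *Ctnna3*, plakoglobin (*Jup*), *Nectin1*, afadin (*Afdn*), the polarity gene *Pard3* and the repressor *Zeb1*. The limma fit called 6 of the 9, and not *Jup*, *Afdn* and *Nectin1* (adjusted p = 0.131, 0.117 and 0.0891). *Zeb1* stood at 70.7, 66.8 and 64.4 at E11.5, at 43.9, 53.5 and 56.8 at E17.5 and at 56.3, 60.2 and 63.5 in EPDCs. *Ctnnb1*, for β-catenin, was uncalled at its annotated gene start and, read in the same way, stood at 85.6 to 92.8 in epicardium and 87.6 to 88.9 in EPDCs. The repressor *Zeb2*, whose groups overlapped at its gene start, was at any start higher at E17.5, at 88.3, 91.3 and 88.2 against 81.3, 87.8 and 84.5 at E11.5. On that reading 23 of the 24 had a region, with 2 higher at E17.5 (*Ctnna1*, *Zeb2*) and 10 lower, where 11% of 15809 protein-coding genes were higher and 25.8% lower.

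In EPDCs 1 of the 22 was higher and 3 lower than in all epicardial lists, against 6.92% and 9.97% of all promoters. The higher was *Twist1*, a driver of mesenchymal fate, at 94.8, 95.2 and 95.4 against 84.9 to 91.3 in epicardium (adjusted p = 0.00303). The lower were *Nectin3*, *Ctnna2* and the α-actinin gene *Actn4*. At any transcript start 1 was again higher and 3 lower, with *Zeb2*, at 70.8, 59.4 and 66.8 against 81.3 to 91.3 in epicardium, in place of *Nectin3*, where 6.71% of all genes were higher and 10.1% lower. The Snail repressors had promoters near the top of every list, with *Snai1* from 96.9 to 99.3 and *Snai2* from 95.5 to 97.4, and passed neither comparison.

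Among 17 further cadherin genes, 13 had a called promoter region, of which none was higher at E17.5 without overlap and 7 were lower (*Cdh7*, *Cdh9*, *Cdh10*, *Cdh12*, *Cdh20*, *Cdh22* and *Cdh23*), against 11.2% and 25.2% of all promoters. Of these 7, the limma fit did not call *Cdh23* (adjusted p = 0.259). At any transcript start 7 of 14 were lower (25.8% of all genes), with *Cdh18*, at 92.9, 94.5 and 92.4 in the E11.5 lists and 82.4, 83.97 and 82.4 in those of E17.5, in place of *Cdh12*. *Cdh20*, for instance, stood at 69.8, 67.9 and 70.0 at E11.5, at 32.4, 22.6 and 33.5 at E17.5 and at 50.03, 40.9 and 61.3 in EPDCs (adjusted p = 0.00142 by stage). In EPDCs, where 6.92% of all promoters were higher and 9.97% lower, 1 was higher, *Cdh19*, a gene of Schwann cell precursors, at 28.8, 18.9 and 56.8 with no summit in epicardium, and 1 lower, *Cdh8*, at 76.8, 76.6 and 78.5 against 82.9 to 89.7. The endothelial *Cdh5* was uncalled at its promoter in every list.

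The promoters most like those of the cadherins over the 9 lists were found by Euclidean distance among 15108 others, in percentile points. *Cdh6* was closest to *Trpm3* (6.62), *Minar1* (7.12) and *Vat1l* (8.55). For *Cdh2* the nearest were *9130008F23Rik* (3.75), *Cacna2d1* (3.82) and *Lrp2* (3.96), and for *Cdh11* they were *Pabpc4l* (3.87), *9130008F23Rik* (4.13) and *Cfap100* (4.21). Near the top of the lists many promoters lie this close together. *Cdh1* was nearest to *Wdr31* (7.62), *Lgals12* (11.3) and *Nxnl2* (11.4), and *Cdh13* to *Dkk3* (10.3), *Lrrc15* (10.5) and *Hist1h2ab* (10.7).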

How the data were processed

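The 10 samples gave 9 peak lists, with the technical replicates of E13.5 EPDC sample 2 joined by the authors in 1 list. According to the methods and the submitters' processing notes, the authors aligned reads to mm10, removed duplicate, multimapped, blacklisted and mitochondrial reads, and ran the peak caller MACS2 (version 2.2.9.1) on fragment pairs of each library, keeping peaks below a q-value of 0.01. The deposited lists give for each summit a fold enrichment over local background, with a −log10 p and −log10 q computed by the authors' peak caller, none of them normalized between libraries. They hold no read counts, so the edgeR test of the methods could not be repeated. Every summit on chromosomes 1 to 19, X and Y was used, and windows of 250 bp to either side were joined by removing overlaps in order of a depth-normalized score. A region took the rank percentile of its strongest summit in each list, 0 where none was called. Percentiles of all regions called in at least 2 lists were fitted in limma 3.58.1 (R 4.3.3) over 3 groups with a mean trend, and p-values were adjusted over all 154147 regions. The EPDC lists of both stages formed 1 group. Single promoters and summit counts were compared by two-sided exact permutation tests over 20 or 84 assignments. Genes were taken from GENCODE M21 and sequence from GRCm38.p6. The fit and the solving of fragment numbers were tested on simulated data.

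The members, gene lists, motifs and tests were chosen with earlier results of these data known. Named were the 6 promoters, for each gene and comparison up to 2 regions rising and 2 falling most among those whose lists did not overlap, the strongest region of each gene, the region at the *Cdh2*-linked element and the 3 most alike promoters, which for *Cdh3* are not reported here. The second regions at the starts of *Cdh2*, *Cdh3* and *Cdh13* were named after their values were seen. Replicate numbers did not pair the samples: same-numbered E11.5 and E17.5 lists deviated from their group means with correlations of 0.0332, 0.0907 and −0.0525 over 57768 regions. The alternatives were ranking by fold enrichment, equal numbers of top summits, −log10 q of at least 5, log2 of the depth-normalized score plus 1, overlap of intervals, other flanks and filters on lists, each epicardial stage alone, each replicate left out and a replicate block. Reading promoters of the gene lists at any protein-coding transcript start was added after the data were seen. Nothing in the labels says whether samples of a group came from separate litters, so p-values measure the spread between these samples. With 3 lists per group each SD is imprecise.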

Additional observations from a re-analysis of the deposited data

How the results depend on the processing

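Of the 8 counts of called regions, member counts stayed within 1.5 times of the reported value except in the EPDC comparison. There 34 higher became 20 against E11.5 epicardium alone, and 30 lower became 19 without E13.5 EPDC sample 1, in a range of 19 to 35 over the left-out lists. Over all regions, the 14066 higher at E17.5 became 22077 on the log2 score, the 38539 lower became 24322 with equal numbers of top summits, and the 29194 higher in EPDCs became 15942 against E11.5 alone. The replicate block, tried although the numbers did not pair the samples, gave 23 higher and 38 lower member regions by stage (16854 and 42559 of all regions) in place of 20 and 34. It leaves the stage differences of the promoters as they were (*Cdh6* −21.6), with a sign-flip p of 0.25, the smallest it can give, except for *Cdh1* (0.5).

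The EPDC difference of the *Cdh1* promoter (−16.8) was −11.98 when ranked by fold enrichment (exact p = 0.131), −13.7 against E11.5 alone (limma adjusted p = 0.0638) and −19.9 against E17.5 alone, and ranged from −22.7 to −11.7 over the left-out lists, with an exact p of 0.0714 without E12.5 sample 1 or E13.5 sample 1. That of *Cdh3* (−64.4) was −12.9 by overlap of intervals, −57.8 against E11.5 alone and −71.0 against E17.5 alone, where 3 against 3 lists cannot give an exact p below 0.1. The small EPDC differences of the other promoters turned negative against E11.5 alone: −1.24 for *Cdh2*, −6.63 for *Cdh6*, −1.97 for *Cdh11* and −4.84 for *Cdh13*. Over the left-out lists they ranged from −0.0478 to 1.92 for *Cdh2*, from −0.286 to 1.69 for *Cdh11* and from −2.02 to 2.35 for *Cdh13*.

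For summits per 10000, the *Cdh1* difference in EPDCs (−0.516) was −0.503 at −log10 q of at least 5, −0.544 with equal numbers of top summits and −0.533 with intervals, each with an unadjusted exact p of 0.0476. Other tests gave an unadjusted p below 0.05 under 1 setting each: 0.448 for *Cdh2* at the stricter q, 0.263 for *Cdh6* with equal numbers of top summits (exact p = 0.0357) and −0.356 for *Cdh11* with intervals, all in EPDCs. By stage *Cdh6* turned to 0.176 with equal numbers of top summits and ranged from −0.132 to 0.0345 over the left-out lists, and *Cdh13* turned to 0.0462, 0.105 and 0.0248 at the stricter q, with equal numbers and with intervals. Of 39 differences of named regions, 3 reversed, all by overlap of intervals (*Cdh2* at 136.0 kb −3.95 and at 127.8 kb −17.8, *Cdh6* at 1.8 kb 26.9), because an interval then gives every window in it the value of its highest summit, and 11 lost their call without reversing under at least 1 setting. On reversing, those of *Cdh2* at 136.0 kb and 127.8 kb lost their call too. The difference of *Cdh6* at 1.8 kb, uncalled as reported, was called under 2 settings. The causes of the other changes were not tested. The lists hold no reads, so a region at 0 may be open below the depth of that list. The weakest called summits of E13.5 EPDC sample 2, the deepest list, rested on a median of 36 fragments, against 14 to 21 in the others.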

Other observations

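At the *Cdh3* start the summit moved while the interval stayed called. The E17.5 lists had their strongest summit in the region at −0.047 kb, at 83.4, 87.8 and 87.1, and 2 of the 3 EPDC lists had no summit there but 1 in the region at 0.7 kb, at 56.9 and 69.8. E17.5 sample 2 had none in the region at 0.7 kb. Within 2 kb of the *Cdh6* start the strongest summit was the one at the start in all 9 lists, and further summits were placed at 1.8 kb in all 6 epicardial lists and in no EPDC list, at 1.2 kb in all 9 and at −0.51 kb in E11.5 sample 2. At *Cdh2*, 136.0 kb into the gene, E11.5 intervals covered a region at 85.7, 88.2 and 88.3 in which only EPDC lists placed a summit.

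The regions at −14.5 kb and 52.9 kb of *Cdh1* and at 50.1 kb of *Cdh2* were called in every epicardial list of both stages and in 1 EPDC list each. For *Cdh1* that list was E13.5 sample 2, the deepest, at 34.9 and 21.7, and for *Cdh2* it was E12.5 sample 1, at 37.4.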
